A study of Mus musculus with 2 samples.

Results

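The positive transcription elongation factor P-TEFb and the factors that hold, release and receive it were followed through 9 genes, chosen by symbol: Cdk9, Ccnt1, Ccnt2, Hexim1, Larp7, Mepce, Aff4, Supt5 and Nelfe. All 9 were found among the 55536 annotated mouse genes of the deposited gene tables. The data were 2 total RNA-seq libraries, depleted of ribosomal RNA, from the nucleoplasmic fraction (called nuclear in another label) of bone marrow-derived macrophages of strain C57BL/6J, exposed for 25 min to 100 ng/ml of lipid A, the moiety of bacterial lipopolysaccharide sensed by the receptor TLR4. Both libraries form 1 group with the same donor entry and separate biological replicate numbers, so the SDs below (n = 2 throughout) measure the spread between these libraries, which may be technical. Sex and age were not collected, per the labels. Every library was treated, and the samples hold neither a control nor a further time, so the values are levels in treated nuclei, with no test and no p-value.

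P-TEFb is a kinase, Cdk9, bound to a T-type cyclin. It phosphorylates RNA polymerase II and the pausing factors DSIF and NELF, and so lets a polymerase that has paused near the start of a gene enter productive elongation. Much of it is held inactive on the small nuclear RNA 7SK by Hexim1, with Larp7 and Mepce stabilising that RNA, and the scaffold Aff4 gathers active P-TEFb in the super elongation complex. In macrophages, release of paused polymerase is known as a step in the fast transcription of primary response genes after TLR4 signalling.

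The gene table held 13506939 estimated counts in replicate 1 and 17932332 in replicate 2, and 500 ng and 1 µg of RNA had gone into them. All 7 macrophage markers were at or above 1 TPM (transcripts per 1000000, a level per length) in both libraries, with summed levels of 4135 and 3420 TPM. Of 20 markers of 6 other blood or stromal cell types, 1 was, with Cd3e, Ly6g and Hbb-bs at 0 counts in both libraries and summed levels per list of 0.03 to 29.8 TPM. That 1 gene, named after its values were seen, was Cd4 at 29.5 and 23.8 TPM. In such bulk samples fewer cells of a type and less RNA per cell cannot be told apart.

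All 9 genes were at or above 1 TPM in both libraries, where 44.5% of the 22028 protein-coding genes were. At 5 TPM the count was 8 of 9, with Larp7 below it in replicate 2, and the share of protein-coding genes was 28.6%. The median member stood at 4.54 ± 0.19 on the log2(TPM + 1) scale, and the median of the 9806 detected protein-coding genes at 3.40 ± 0.33. Levels spanned 23.8-fold between the highest and the lowest member by mean TPM. Cdk9 was the highest, above 95.7% of detected protein-coding genes, and Larp7 the lowest, above 22.4% of them.

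**Figure D1:**
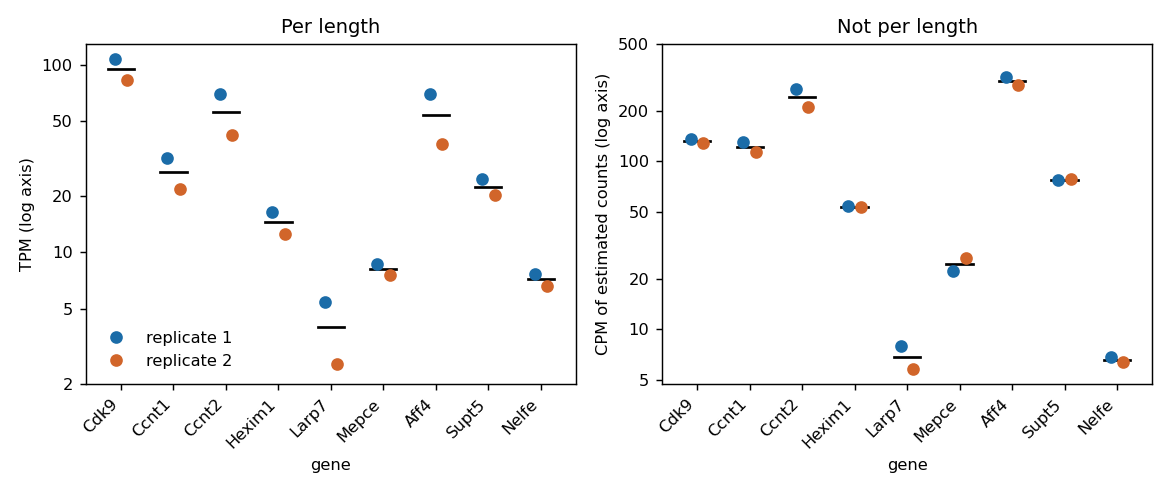
Level of each of the 9 genes in replicate 1 (blue, left) and replicate 2 (orange, right), with the mean as a black bar, as TPM (left panel) and as CPM of estimated counts (right panel), both on log axes. Cdk9 is highest per length at 107 and 83.2 TPM, whereas Aff4 and Ccnt2 are highest in CPM, which is not per length.

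Cdk9, the catalytic subunit (chromosome 2, 32705784 to 32713076, minus strand, mm10), had 106.8 TPM in replicate 1 and 83.2 TPM in replicate 2, from 1834 and 2295 estimated counts. No annotated Cdk9 transcript had more codons than Cdk9-201, with 372; a longer protein made from an upstream start is known, and no transcript with its coding sequence was in the annotation used. Cdk9-202 starts 517 bases further downstream and its coding sequence, 321 codons, lacks the first 51 codons of Cdk9-201. The coding bases that set them apart are shown because Cdk9-202 had the widest gap in share between the libraries among the 9 annotated Cdk9 transcripts. They lie at chr2:32712052-32712656 (GRCm38, minus strand, spliced, 5′ to 3′), with the bases of exon 2 in capitals, and they hold the glycine-rich loop of the kinase's nucleotide-binding site.
Cdk9-201 coding start: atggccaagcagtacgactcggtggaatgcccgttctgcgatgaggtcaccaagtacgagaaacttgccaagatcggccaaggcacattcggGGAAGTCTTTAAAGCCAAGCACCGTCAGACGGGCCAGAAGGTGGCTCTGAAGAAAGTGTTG

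The 61 capital bases also lie in exon 2 of Cdk9-202, where they come before its start codon, whereas the lower case bases are absent from Cdk9-202. In the deposited transcript table, which gives each transcript's percent of its gene's TPM, Cdk9-202 held 48.7% in replicate 1 and 31.9% in replicate 2. Cdk9-201 held 21.2% and 25.8%. Cdk9-208, annotated as a target of nonsense-mediated decay with a coding sequence of 61 codons, held 20.9% and 33.0%, so that the leading transcript was Cdk9-202 in replicate 1 and Cdk9-208 in replicate 2. The ratio of Cdk9-201 to Cdk9-202 was 0.434 and 0.808 by TPM, and 0.703 and 1.91 in the alignment-free table, a second estimate made from the reads without an alignment.

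Grouped by start, Cdk9-201, Cdk9-203 and Cdk9-208, which start upstream of Cdk9-202, held 43.6% and 62.2% of the gene's TPM, a mean of 52.9 ± 13.1%. The downstream starts of Cdk9-202 and Cdk9-209 held 51.7% and 34.4%, a mean of 43.0 ± 12.2%. In the alignment-free table the upstream group had 50.9% and 71.7%, and the downstream group a mean of 30.3 ± 13.2%. Both tables had more of the upstream group in replicate 2 than in replicate 1, and in both its mean lay within 1 SD of 50%. Cdk9-202 shared 1507 of its 1565 bases, or 96.3%, with Cdk9-201, which is 1733 bases long. Only 14 bases of Cdk9-202 lie in no other transcript of the gene, and Cdk9-201 and Cdk9-208 have no such bases. The shares of these transcripts are thus estimates of how shared reads were divided.

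Ccnt1 and Ccnt2 encode cyclins T1 and T2, which activate Cdk9 and bring it to its substrates. Ccnt1 (chromosome 15, 98538689 to 98570923, minus strand) had 31.7 and 21.8 TPM in replicates 1 and 2, a mean of 26.8 ± 6.99, from 1772 and 2042 counts. Ccnt2 (chromosome 1, 127774164 to 127808061, plus strand) had 70.1 and 42.0 TPM, a mean of 56.1 ± 19.8, from 3668 and 3774 counts. Ccnt1 was lower than Ccnt2 in both libraries, with a difference of -1.02 ± 0.15 on the log2(TPM + 1) scale. In the alignment-free table the difference was -0.44.

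The gap between the cyclins narrowed when only transcripts annotated as protein coding were summed. On that measure Ccnt1 had 15.2 and 10.2 TPM, a mean of 12.7 ± 3.51, and Ccnt2 had 19.1 and 13.2 TPM, a mean of 16.2 ± 4.12. The ratio of Ccnt1 to Ccnt2 was 0.784 ± 0.017 over coding transcripts, against 0.486 ± 0.047 over whole genes. The alignment-free table gave 0.786 ± 0.012 over coding transcripts and 0.719 ± 0.015 over whole genes. These SDs do not cover the division of reads among transcripts. Nearly all of the coding level of Ccnt2 came from Ccnt2-202, all of whose bases lie in other Ccnt2 transcripts. For Ccnt1 the coding level came from 1 transcript, Ccnt1-208 with 724 codons, at 47.9% and 46.8% of the gene's TPM. Ccnt1-201, which has the same coding sequence and lies wholly within it, had 0 counts in both libraries.

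The rest of the TPM of Ccnt1 in the aligned table lay mainly in 2 transcripts. They were the retained-intron transcript Ccnt1-202, at 27.5% and 28.4%, and the noncoding Ccnt1-203, at 22.0% and 19.1%. Ccnt1-203 rested on 44.65 and 47.87 counts, and all its bases lie in other transcripts of the gene. In the alignment-free table it held 5.49% in replicate 1 and 0% in replicate 2. Ccnt1-202 led in the alignment-free table, with 35.2% and 37.4%, against 27.8% and 29.7% for Ccnt1-208. The antisense gene 9330020H09Rik overlaps Ccnt1 and had 69.8 and 72.0 counts. The sources used here do not say whether counting used strand, so reads from this pair of genes cannot be told apart with certainty.

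Ccnt2 had the smallest coding share of the 9 genes in both tables, 29.4 ± 3.0% of TPM in the aligned one and 26.3% in the alignment-free one. Retained-intron transcripts held 48.0 ± 2.8% of its TPM. Its largest number of reads went to Ccnt2-207, a transcript of 7640 bases annotated without a coding sequence, with 1623 and 1619 counts, or 44.2% and 42.9% of the gene's counts. The coding transcripts end in different ways, as is known in human for the proteins cyclin T2a and T2b. Ccnt2-202, with 657 codons, splices out 98 bases that are coding in Ccnt2-201, with 723 codons. The segment lies at chr1:127803294-127803391 (GRCm38, plus strand) and is shown with 30 coding bases on either side, since the 2 annotated coding transcripts part there. Capitals mark the bases spliced out of Ccnt2-202.
Ccnt2-201 retained segment: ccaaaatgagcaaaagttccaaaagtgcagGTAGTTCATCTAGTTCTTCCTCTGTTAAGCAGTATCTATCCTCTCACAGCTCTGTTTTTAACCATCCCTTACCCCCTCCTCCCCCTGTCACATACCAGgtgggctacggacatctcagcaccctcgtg

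Ccnt2-202 held 25.4% and 31.5% of the gene's TPM, from 1048 and 1315 counts. Ccnt2-201, which keeps the capital bases, held 1.76% from 110 counts in replicate 1 and had 0 counts in replicate 2. It had 0 in the alignment-free table in both libraries. Ccnt2-201 shares 91.7% of its bases with the noncoding Ccnt2-207 and has none that are absent from every other Ccnt2 transcript. A read over the capital segment can therefore come from either, and the low level of Ccnt2-201 is an estimate of how shared reads were divided.

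**Figure D2:**
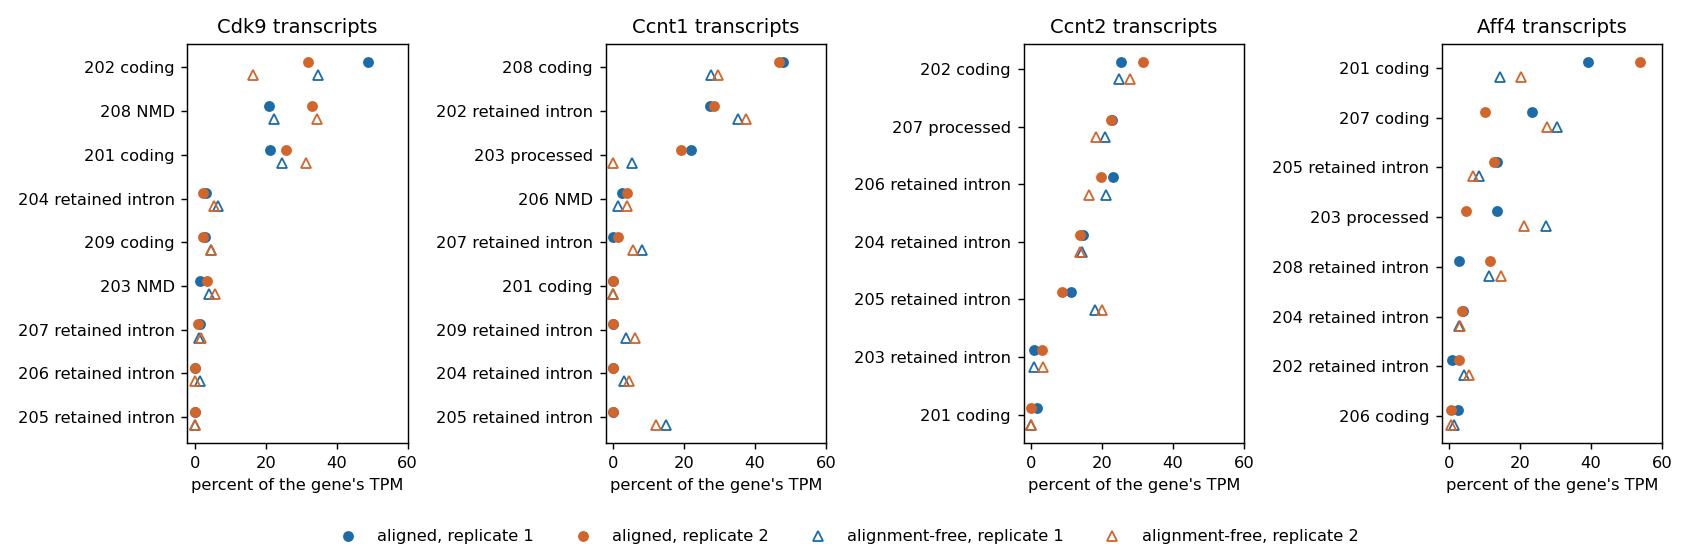
Percent of the gene's TPM in each annotated transcript (rows, with the transcript number and type; NMD, nonsense-mediated decay) of Cdk9, Ccnt1, Ccnt2 and Aff4, in replicate 1 (blue) and replicate 2 (orange). Filled circles are the aligned table and open triangles the alignment-free one. Cdk9-202 holds 48.7% and 31.9% in the aligned table, and Ccnt1-208 and Aff4-201 are higher there than in the alignment-free table.

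Set against each other, Cdk9 was 1.80 ± 0.11 above Ccnt1 and 0.78 ± 0.26 above Ccnt2 on the log2(TPM + 1) scale. Against both cyclins summed, Cdk9 stood at a ratio of 1.05 in replicate 1 and 1.30 in replicate 2, and of 0.837 and 1.03 in the alignment-free table. Over coding transcripts alone the ratio was 2.27 and 2.13, and 2.06 and 1.88 in the alignment-free table. With Cdk9 restricted to Cdk9-201, the transcript with the whole kinase coding sequence, it was 0.660 and 0.914, and 0.788 and 1.13 in the alignment-free table. Whether kinase or cyclin RNA stood higher thus differed with the transcripts counted. It also differed with the table, for the whole genes in replicate 1 and for Cdk9-201 in replicate 2. Within the alignment-free table these comparisons changed side between the libraries as well. In counts that are not per length, as CPM (counts per 1000000 of the library's estimated counts), Cdk9 minus Ccnt2 turned to -0.85 and Cdk9 minus Ccnt1 was 0.11. The alignment-free table gave 1.08 for Cdk9 minus Ccnt1.

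Of the 3 members that encode proteins of the 7SK particle, Hexim1 had the highest level in both libraries. Hexim1, whose protein inhibits Cdk9 when bound to 7SK (chromosome 11, 103116231 to 103119725, plus strand), had 16.4 and 12.6 TPM, a mean of 14.5 ± 2.65, from 734 and 958 counts. It has 1 exon and 1 annotated transcript, of 356 codons, so its level does not depend on how reads were divided among transcripts. Hexim1 minus Cdk9 was -2.63 ± 0.0038 on the log2(TPM + 1) scale, with nearly the same value in both libraries, and -1.28 in CPM. As a ratio of TPM, Cdk9 over Hexim1 was 6.53 and 6.60, and 6.84 and 7.05 in the alignment-free table. Over coding transcripts it was 4.76 and 3.97, and for Cdk9-201 alone 1.38 and 1.70.

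Larp7, which binds and protects the end of 7SK RNA (chromosome 3, 127536714 to 127553349, minus strand), had 5.42 and 2.56 TPM, a mean of 3.99 ± 2.02. It rested on 107 and 104 estimated counts, with 95% Poisson intervals of 87.7 to 129 and 85.0 to 126, which cover counting error only. The coding transcript Larp7-201, of 570 codons, held 56.0% and 81.8% of its TPM, from 79.1 and 93.2 counts. Retained-intron transcripts held the other 43.9% and 18.3%, from 27.9 and 10.8 counts. The gap between libraries in the gene's TPM thus went with a larger share of shorter transcripts in replicate 1, where the mean length used for the gene was 1659 bases, against 1953 bases in replicate 2.

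Mepce, the enzyme that caps the 5′ end of 7SK RNA (chromosome 5, 137781906 to 137787655, minus strand), had 8.67 and 7.62 TPM, a mean of 8.14 ± 0.742, from 302 and 477 counts. Mepce-201, of 666 codons, held 85.9% and 91.8% of it. Larp7 minus Mepce was -0.93 ± 0.48 on the log2(TPM + 1) scale, negative in both libraries, and -1.70 in CPM. 7SK RNA itself (Rn7sk) had 112737 and 201888 TPM, or 13693 and 38779 CPM, and was higher in replicate 2. Its centred log2 ratio of replicate 1 to replicate 2 was -1.26. 7SK has many related copies in the genome, so its reads could be divided among them and its level is uncertain. Hexim2, the paralog of Hexim1, had 2.10 ± 0.19 TPM, the lowest level of its list, and the ratio of Hexim1 to Hexim2 was 8.30 and 5.63.

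Aff4, the scaffold of the super elongation complex (chromosome 11, 53350833 to 53421830, plus strand), had 70.2 and 37.8 TPM, a mean of 54.0 ± 22.9, from 4297 and 5145 counts, the most of any member. Its full coding transcript Aff4-201, of 10099 bases and 1160 codons, took 86.2% and 89.9% of these counts but 39.0% and 53.8% of the TPM. The 6 transcripts shorter than 1000 bases held 33.2 TPM in replicate 1 and 12.7 TPM in replicate 2, from 125 and 118 counts. They made 47.4% and 33.5% of the gene's TPM. In the aligned table most of the difference between the libraries in Aff4 thus lay in transcripts that rested on few reads. Aff4-201 had 27.4 and 20.3 TPM there, whereas Aff4-207, of 464 bases, had 16.4 and 3.83 TPM from 56.0 and 24.7 counts. The alignment-free table gave Aff4-207 265 and 204 counts and made it the leading transcript, at 30.4% and 27.7% of TPM. Aff4-201 held 14.3% and 20.2% in that table, so which transcript led differed between the tables.

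On the whole-gene scale Aff4 minus Cdk9 was -0.86 ± 0.37 in log2(TPM + 1). The difference turned to 0.41 in the alignment-free table and to 1.19 in CPM. Over coding transcripts the ratio of Aff4 to Cdk9 was 0.585 and 0.487 by the gene table. The alignment-free table put it at 1.14 and 1.04. The ratio of Aff4-201 to Cdk9-201, both with the full coding sequence, was 1.21 in replicate 1 and 0.948 in replicate 2, and 0.927 and 0.722 in the alignment-free table. Which of these genes stood higher thus differed between the tables and between the transcripts counted. Aff1, the paralog that serves as a scaffold in related complexes, had 54.3 ± 19.1 TPM, and the ratio of Aff4 to Aff1 was 1.03 and 0.926. Aff3, a further paralog, had 0.115 ± 0.049 TPM and was the lowest gene of that list.

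Supt5 encodes the large subunit of DSIF, which turns from a pausing factor into an elongation factor once phosphorylated. The gene (chromosome 7, 28314891 to 28338746, minus strand) had 24.6 and 20.2 TPM, a mean of 22.4 ± 3.12, from 1042 and 1414 counts. Supt5-201 and Supt5-208, both of 1082 codons, held 66.8% and 63.3% for the first and 10.6% and 10.5% for the second. Supt5-202, annotated as a target of nonsense-mediated decay, held 8.99% and 9.20%. This make-up was close in both libraries of the aligned table, whereas the alignment-free table gave Supt5-201 44.0% and 50.8%. The antisense gene Gm44709 overlaps Supt5 and had 27.9 and 64.6 counts.

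Nelfe, the RNA-binding subunit of NELF (chromosome 17, 34850391 to 34856372, plus strand), had 7.70 and 6.66 TPM, a mean of 7.18 ± 0.735. It rested on 92.0 and 115 counts, with 95% Poisson intervals of 74.2 to 113 and 94.9 to 138. Transcripts with the full 367 codons (Nelfe-201, Nelfe-202 and Nelfe-204) held 68.7% and 51.9% of its TPM. The leading transcript was Nelfe-202 in replicate 1, at 60.9%, and the retained-intron transcript Nelfe-207 in replicate 2, at 37.1%. Nelfe-207 is 425 bases long and its share came from 6.94 and 13.7 counts, too few to order the transcripts of this gene.

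Supt5 was 1.51 ± 0.063 above Nelfe on the log2(TPM + 1) scale, and the difference was 1.57 in the alignment-free table and 3.38 in CPM. The closeness of 1.51 and 1.57 depends on the added 1. It weighs more in the alignment-free table, where Nelfe had 3.79 and 1.25 TPM, against 7.70 and 6.66 TPM in the gene table. Supt4a, the small DSIF subunit, had 4.38 ± 1.60 TPM, so that the ratio of Supt5 to it was 4.46 and 6.21. The other NELF subunits were Nelfcd at 20.8 ± 2.67 TPM, Nelfb at 13.1 and 6.93 TPM and Nelfa at 8.82 ± 2.71 TPM. Nelfe and Nelfa differed by less than their spread, and Nelfe stood at 0.408 and 0.294 of Nelfcd.

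In order of mean TPM the 9 genes ran Cdk9, Ccnt2, Aff4, Ccnt1, Supt5, Hexim1, Mepce, Nelfe and Larp7. Neighbours were called apart where their log2 difference had the same sign in both libraries and a mean larger than its SD, which held for 7 of 8 pairs. Ccnt2 and Aff4 were not apart, with a difference of 0.076 ± 0.11. The call covers neither counting error nor the division of reads among transcripts. Mepce and Nelfe were called apart at 0.18 ± 0.016, though Nelfe rested on 92 and 115 counts. Of the pairs called apart, only Ccnt1 and Supt5 changed order over coding transcripts. There Ccnt1 had 15.2 and 10.2 TPM and Supt5 19.0 and 14.9 TPM. By mean CPM the range was 45.8-fold and the order began with Aff4 at 318 and 287 CPM and Ccnt2 at 272 and 210.5 CPM. With 2 libraries of 1 group, likeness of pattern between genes cannot be measured, and none is given.

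Over all 9 genes, 58 transcripts were annotated, 41 had a share above 0 in both libraries and 10 had 0 counts in both. Of the counts, 72.7 ± 1.5% went to coding transcripts, where the share over all protein-coding genes was 79.4 ± 0.75%. This pooled share was pulled down by Ccnt2, at 33.2 ± 2.3% of its own counts. Cdk9 stood at 74.3 ± 5.7%, and every other member had a mean of 81.8% (Larp7) or more, above the share over all protein-coding genes. Retained-intron transcripts took 12.6 ± 1.4% in the 9 genes and 15.6 ± 0.68% in all protein-coding genes. In the alignment-free table these values were 19.2 ± 1.9% and 17.5 ± 0.038%, in the opposite order, so no difference from other genes in retained introns was seen in both tables. Transcripts typed as processed, without an open reading frame, took 11.3 ± 1.4% of the members' counts, most of them in Ccnt2-207, and 2.6 ± 0.089% of those of all protein-coding genes.

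**Figure D3:**
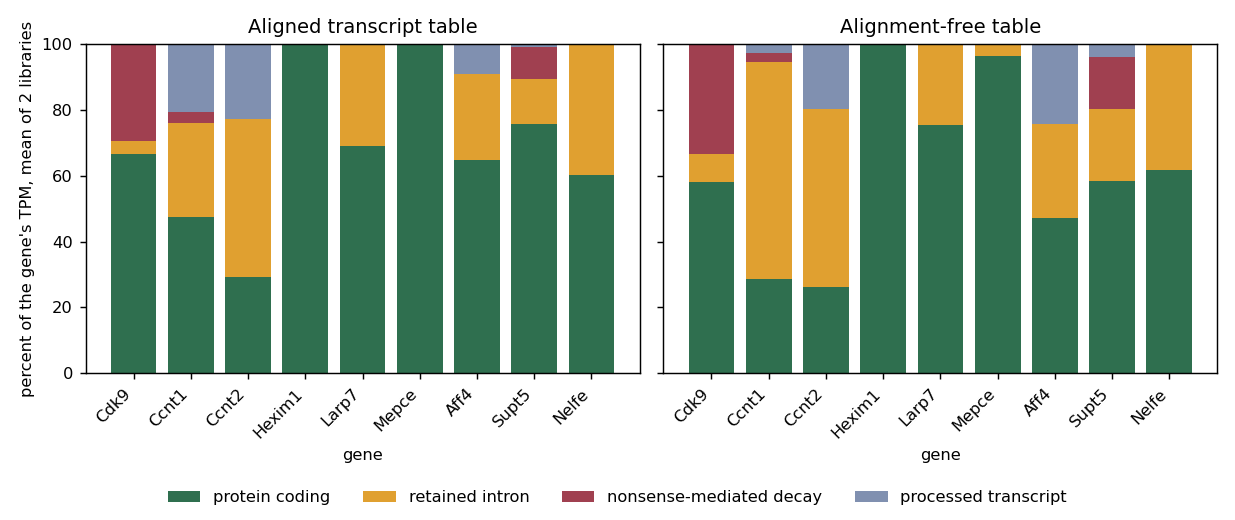
Mean percent of each gene's TPM over both libraries in coding (green), retained-intron (yellow), nonsense-mediated decay (red) and processed (grey-blue) transcripts, in the aligned table (left) and the alignment-free table (right). Hexim1 is wholly coding in both, Mepce in the aligned table, and Ccnt2 has the smallest coding share in both, 29.4% and 26.3%.

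The leading transcript was the same in both libraries for 6 of the 8 genes with more than 1 transcript, the exceptions being Cdk9 and Nelfe, and for 78.0% of the 9150 protein-coding genes so compared. It was the same in both tables for 6 of 8, the exceptions being Ccnt1 and Aff4, and for 62.8% of those genes. Its median share of TPM was 46.6% in the members and 53.1% in all those genes. Both counts lay near their background.

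Between the libraries, all 9 genes had higher TPM in replicate 1 than in replicate 2, and so did most genes: over the 14584 genes with at least 10 counts in both, log2 of replicate 1 over replicate 2 had a median of 0.42. With that median taken off, the ratios ran from -0.26 for Mepce to 0.45 for Aff4, with 0.43 for Larp7 and 0.30 for Ccnt2. None of the 9 was beyond 2-fold, where 1.71% of all genes were, with 0.487% higher in replicate 1. Without the median taken off, again 0 of 9 were higher in replicate 1 beyond 2-fold, where 3.54% of all genes were. That count rests on TPM + 1, on which Larp7 had a log2 ratio of 0.85. By TPM itself, at 5.42 and 2.56, Larp7 was beyond 2-fold. With such small background shares, 0 of 9 is no result about these genes. In CPM, with the median of 0.19 taken off, the ratios ran from -0.43 for Mepce to 0.20 for Larp7, and Aff4 stood at -0.04. In the alignment-free table Aff4 had 0.88 and Ccnt2 0.65 after a median of 1.19.

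**Figure D4:**
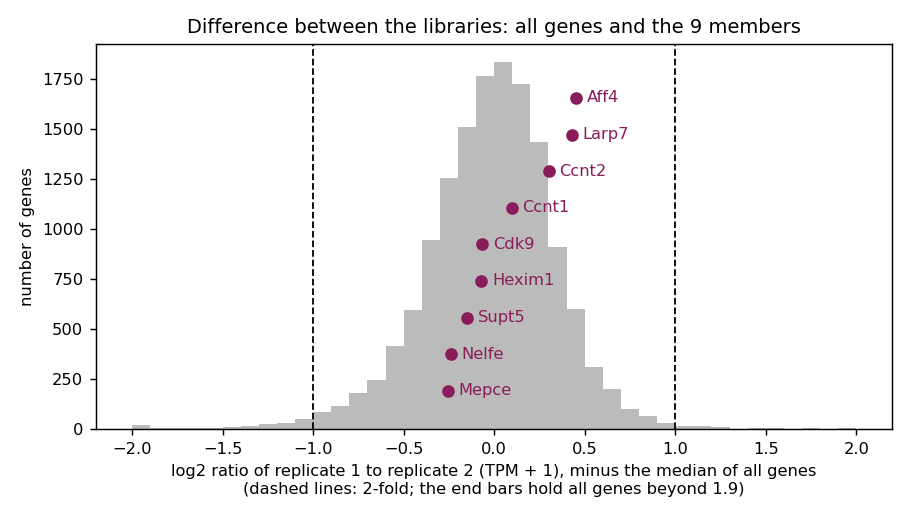
Number of genes (grey bars) by log2 ratio of replicate 1 to replicate 2 on the TPM + 1 scale, with the median of all 14584 genes taken off, and the 9 members as labelled points placed at their ratio (their height has no meaning). The end bars gather all genes beyond the axis range. All 9 points lie between the dashed 2-fold lines, from -0.26 to 0.45.

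The wider pathway was followed in 60 genes of 7 lists. Of these, 55 were at or above 1 TPM in both libraries, where 44.5% of protein-coding genes were. At 5 TPM there were 37, where 28.6% of protein-coding genes were. Only 43 reached 1 TPM in both libraries of the alignment-free table. All 9 genes of the PAF complex and histone chaperones, all 9 other transcription kinases and cyclins, all 4 of DSIF and NELF, all 9 of recruitment, release and phosphatases, and all 7 of cleavage and termination were detected, as were 6 of 9 of the super elongation complex and 11 of 13 polymerase II subunits. Paf1, of the complex that travels with elongating polymerase, led its list at 60.6 ± 6.74 TPM, and Wdr61 was lowest at 4.67 ± 0.785 TPM. Cdk12, a kinase of the polymerase tail during elongation, led the other kinases and cyclins at 50.7 ± 11.4 TPM, and the Mediator kinase Cdk19 was lowest at 4.65 ± 1.60 TPM. Cdk9 stood at 1.82 and 1.95 times Cdk12.

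In the list of recruitment, release and phosphatases, Brd2, which encodes a protein that binds acetylated histones, had 201 and 187 TPM and was named after its values were seen. Polr2a, the catalytic subunit of polymerase II whose tail P-TEFb phosphorylates, had 36.8 ± 8.63 TPM, and Polr2l was the lowest subunit at 0.815 ± 0.064 TPM. Pcf11, a termination factor that binds that tail, had 73.8 ± 4.63 TPM, and Cstf2, of the cleavage machinery, 3.04 ± 1.03 TPM. Of 57 countable genes of these lists, 2 were beyond 2-fold between the libraries, where 1.71% of all genes were. They were Rn7sk, given above, and the polymerase subunit gene Polr2i, named after its values were seen, at 6.91 and 1.81 TPM and a centred log2 ratio of 1.07. The median level per list ran from 2.13 ± 0.50 on the log2(TPM + 1) scale for polymerase II subunits to 4.64 ± 0.23 for cleavage and termination, and that of the 9 members was 4.54 ± 0.19.

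**Figure D5:**
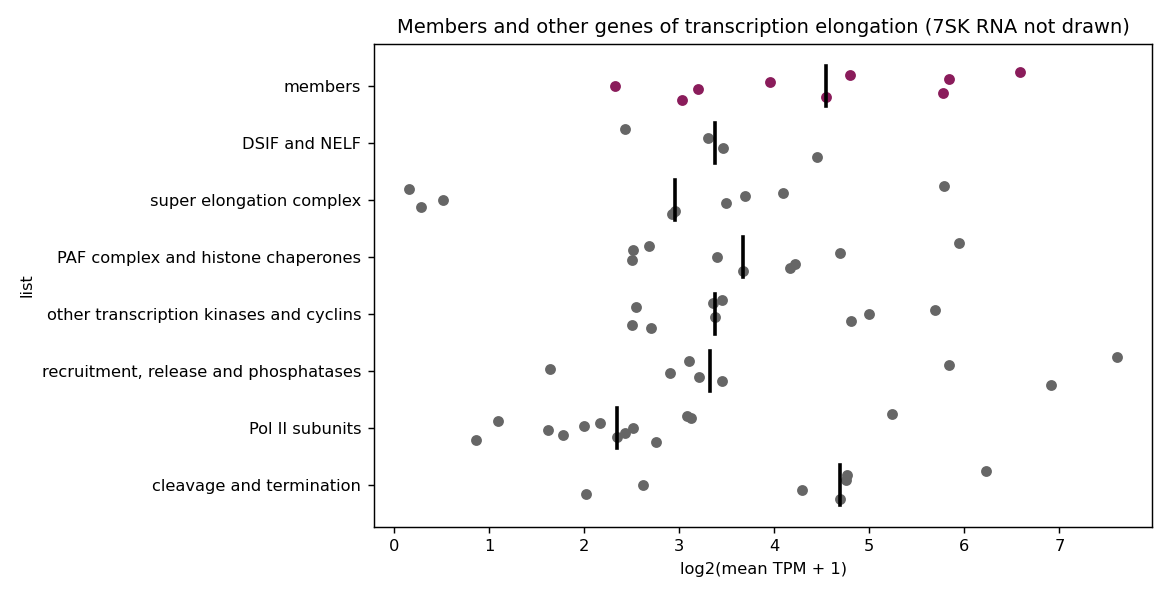
Level of each gene as log2(mean TPM + 1), for the 9 members (top row, purple) and the 7 lists of other elongation and termination genes (grey), with the median of the points drawn in each row as a black bar; 7SK RNA, far above the axis, is not drawn. Polymerase II subunits have the lowest median, with Polr2l the lowest of that list at 0.815 TPM. The lowest gene drawn is Aff3 of the super elongation complex, at 0.115 TPM, and the members overlap every list.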

How the data were processed

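Ribosomal RNA-depleted total RNA of 2 libraries was analysed. Per the deposited readme, the authors aligned reads to the transcriptome (mm10, GENCODE M21) to make expected counts and TPM per gene and per transcript. The deposited transcript table also gives each transcript as a percent of its gene. A second deposited table has estimated counts and TPM that the authors obtained without alignment, from an index. The sources used here do not name the quantifiers.

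From these, CPM was computed over annotated genes, and transcripts were joined to GENCODE M21 for type, coordinates, coding length and sequence (GRCm38, the assembly behind mm10). The alignment-free values were summed per gene. Their TPM scale differs over 2-fold between the libraries, so for comparisons CPM, ratios or differences within a library, or ratios minus the median were used. Differences in log2(TPM + 1) still depend on that scale, since the added 1 weighs more at low levels. The detection counts and median member level from the alignment-free table are on that table's own TPM scale. Detected means at least 1 TPM in both libraries. Ratios between libraries used TPM + 1 and at least 10 counts in both. Shares per transcript are of TPM unless counts are named. The libraries' counts differed beyond sampling noise, with a chi-square per degree of freedom of 52.4, and both were kept. Depth was 13506939 and 17932332 counts, and intervals cover counting error only: without molecular identifiers, reads are no independent molecules. Transcripts of 1 gene share most bases, so their split is an estimate.

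The members, the 7 partner lists and the marker lists were chosen with earlier results of these data known. Named are all members, the highest and lowest gene of each partner list, close relatives of members, genes that overlap a member, and 7SK; genes outside this rule are said to be so. Alternatives were other minimums, pseudocount, CPM, rescaled TPM, the alignment-free table, TMM (edgeR 4.0.16) and DESeq2 1.42.0 size factors on rounded expected counts, and each library alone. Python 3.11.15, pandas 2.3.3, numpy 2.4.6, scipy 1.17.1, matplotlib 3.10.9 and R 4.3.3 were used. Interval bounds of TPM in the tables were not used, and protein sequences were not used here.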

Additional observations from a re-analysis of the deposited data

How the results depend on the processing

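No paired analysis was possible because both libraries belong to 1 group. Of 77 recomputed values, 3 reversed and 17 moved by more than the spread between the libraries or, for counts, by more than 1.5 times, and 57 did neither. The value of a single library always lies within 1 SD of the mean of both. For levels, differences and shares, the single-library values among the 57 thus could not have moved, and they say nothing of stability. The reversed ones were Cdk9 minus Ccnt2, at -0.85 in CPM, and Aff4 minus Cdk9, at 0.41 in the alignment-free table and 1.19 in CPM; CPM is not per length, and for the alignment-free value the cause was not tested. The other 32 of 35 recomputed differences between members kept their direction. Of the partners, 37 were detected at 5 TPM and 43 on the alignment-free table's own TPM scale, against 55. The median member level, 4.54, was 3.29 in the alignment-free table, 5.05 after TPM was rescaled without mitochondrial genes and genes under 200 bases, and 6.30 in CPM, and ran from 4.41 to 4.68 over the single libraries. The same rescaling of the alignment-free table, an alternative chosen after seeing the data, gave 4.48. The retained-intron share, 12.6%, was 19.2% in the alignment-free table, 20.5% as a share of TPM and 10.2% as a median over members, and ran from 11.6% to 13.6% over the single libraries. A leading share of at least 50% was held by 3 of the 8 members with more than 1 transcript. For all 3 the leading transcript agreed between libraries and between tables. Both counts are among the 17 that moved only because fewer genes were compared. Of the members, 8 were detected in the alignment-free table, with Larp7 at 0.727 TPM in replicate 2, and 9 after rescaling it. None of the 9 was beyond 2-fold under any of the 8 alternatives run, ratios of CPM minus their median, added after seeing the data, included. Of 36 pairs of members, 34 kept their order in the alignment-free table and 32 in CPM. Larp7 and Nelfe rest on the fewest reads, at most 115 counts a library.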

Other observations

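Small RNA genes lie within some of the 9 genes. Mir2861 and Mir3960 lie on the same strand within Cdk9 and had 0 counts in the gene table in both libraries. The cluster of Mir302a, Mir302b, Mir302c, Mir302d and Mir367, known from pluripotent cells, lies within Larp7 on the opposite strand and had 0 counts in both libraries. In the alignment-free table Mir302c had 3 counts and Mir302a 1 count in replicate 1, and both had 0 in replicate 2. The fragment size range of 250 to 400 given in the labels is above the length of these precursors, so a count of 0 says nothing of their presence. Mir6920 and Gm25930, on the strand of Aff4 and within it, had 0 counts in the gene table, and 12 and 11 counts for Mir6920 and 14 in each library for Gm25930 in the alignment-free table.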
